A study of Rattus rattus with 18 samples.

Results

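Voluntary wheel running was compared with sedentary housing in the hypothalamic arcuate nucleus (ARC) of rats on a high-fat diet (HFD), across all expressed genes. The comparison used the libraries labelled as HFD with voluntary running (HFR, n = 4) and as HFD and sedentary (HFS, n = 3), 7 of the 18 libraries of the series. The study asked how diet-induced obesity, voluntary running and miR-211 act on gene expression in the ARC. All animals were female Wistar rats, given as WSH in the labels. HFS and HFR rats shared a diet labelled 60% HFD from postnatal day 21, and from postnatal day 90 they were housed for 4 weeks in monitored cages, with a running wheel for HFR and with a plastic tube and no wheel for HFS. Chow-fed sedentary rats (CS, n = 3) entered the same fit and are given for the level. RNA came from tissue punches of 1 mm taken from both hemispheres in coronal sections between -2.3 and -4.5 mm from Bregma, so each library is bulk tissue from the punched area. The cohort of each animal and its running distance are not given in the labels.

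The ARC lies at the base of the hypothalamus beside the third ventricle and holds neurons that sense hormones and nutrients, among them the *Pomc* neurons that restrain feeding. It also holds astrocytes, tanycytes, microglia, oligodendrocytes and the cells of vessels and of the overlying meninges. Glial and immune cells of the hypothalamus are known to respond to HFD, and wheel running is known to act on energy balance.

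Transcript ends were counted by a bulk form of MARS-seq, and the deposited values are whole-number counts per gene. Counts on genes were 5769107, 6373077 and 6322895 in HFS replicates 1 to 3 and 5031283, 5368885, 4753472 and 7494207 in HFR replicates 1 to 4. Levels are given as CPM, the counts scaled to a common library size with TMM factors. HFR replicate 3 stood apart from the other libraries. It had a count on 14312 genes, against 15231 to 15725 in the other 9 libraries, and 139 tested genes were at zero there, against 5 to 33. Its median correlation with its own group was 0.932, against at least 0.937 in the other libraries, over 5082 genes that are not independent of each other. *Mt-co1*, a mitochondrial subunit of cytochrome c oxidase, was at 206 CPM in HFR replicate 3 and between 1946 and 3848 CPM in the other 9 libraries. HFR replicate 3 was kept, and several results are also given without it.

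In running rats, most of the listed transcripts of the extracellular matrix, of microglia, of antigen presentation and of NF-kB signalling were lower than in sedentary rats, and most of those of neuronal ion channels, of the neuronal cytoskeleton and of synapses were higher, by small amounts. None of these differences passed the edgeR test over all genes. Of 11892 genes tested with edgeR's quasi-likelihood test, 0 (0%) passed an adjusted p (Benjamini-Hochberg) of 0.1, and the smallest adjusted p was 0.989. At an unadjusted p under 0.05 there were 504 genes (4.24%), no more than the share of 0.05 expected with no difference at all. Of these, 305 (2.56%) were lower and 199 (1.67%) higher in HFR. Without HFS replicate 1 this order turned around, with 133 lower and 148 higher of 281, and in all other fits the lower genes were more. DESeq2 called 1 gene. All 4 HFR libraries lay below all 3 HFS libraries in 438 genes (3.68%) and above them in 376 (3.16%). With RLE factors in place of TMM, 421 of 814 such genes lay above. With 3 against 4 libraries some genes separate by chance, and these counts were not set against that share. The count at an unadjusted p under 0.05 was 330 without HFR replicate 2, 621 without HFR replicate 3 and 775 (548 lower) without HFR replicate 4. It was 621 without CS replicate 2 and 623 with the HFS and HFR libraries alone.

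The precision of the comparison depended on the level of the gene. The median width of the 95% interval to either side of the log2 fold change was 0.35 for the 5082 genes with a log2 CPM of 5 or more, 0.63 for the 5039 genes between 2 and 5, and 1.23 for the 1771 genes under 2. For 8185 genes (68.8%) the interval lay within a fold change of 2 in either direction, and for the more abundant genes this share was 95.7%. A difference of that size was thus outside the interval for most abundant genes, and lay inside it for many of low abundance. The median log2 fold change was -0.01 over all genes, 0.03 in the most abundant class, -0.06 in the middle and -0.11 in the lowest.

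**Figure D1:**
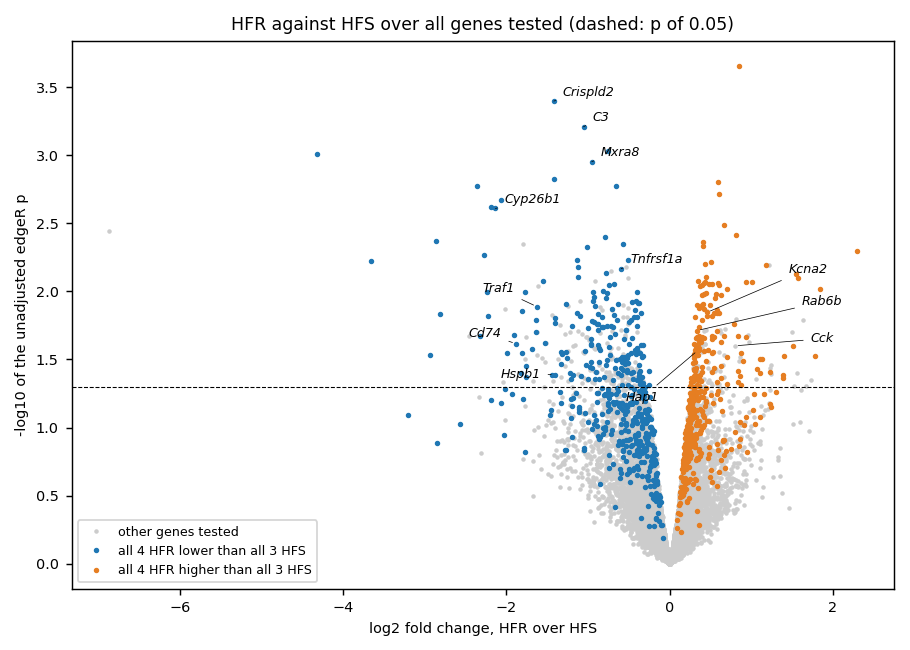
Each point is 1 of the 11892 genes tested, with the log2 fold change of HFR over HFS on the x axis and -log10 of the unadjusted edgeR p on the y axis. Blue points (438 genes) have all 4 HFR libraries below all 3 HFS libraries and orange points (376 genes) the reverse, and 504 points lie above the dashed line at a p of 0.05.

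Symbols were at hand for 568 of the genes tested. Of these, 53 (9.33%) were lower and 11 (1.94%) higher in HFR at an unadjusted p under 0.05, and 64 (11.3%) and 27 (4.75%) had groups that did not overlap. Most symbols come from a list of genes that the study took for differing between chow and HFD in sedentary rats, in part on the HFS libraries used here, so a shift of HFR away from HFS in these genes is not independent evidence of its direction. Some genes below were named for the smallest p among genes with a symbol and separate groups. Among the lower genes these were *Crispld2*, *C3*, *Mxra8*, *Cyp26b1*, *Tnfrsf1a*, *Mmp2*, *Gstt3*, *Angpt2*, *Traf1*, *C1qc*, *Cyba* and *Mt1-ps3*. The higher genes include *Kcna2*, *Rab6b*, *Hap1*, *Kif5a*, *Vamp1*, *Slc6a7* and *Depp1*. Their separation and small p follow from that choice and are no evidence of a difference. CS replicate 2 and HFS replicate 2 matched no animal of that list, while the other 8 libraries did. The group of these 2 libraries thus rests on the labels alone, and whether the labels apply was not tested. CS replicate 2 lay within the HFS range of summed CPM for matrix, microglia and antigen presentation genes, apart from CS replicates 1 and 3. Its highest correlation with any library was 0.9795, equal to the highest of HFS replicate 1, against a median of 0.940 with its own group. With CS replicate 2 and HFS replicate 2 left out edgeR called 0 genes, while DESeq2, a combination chosen after seeing the data, called 7. By DESeq2's Benjamini-Hochberg adjusted p these were *Capg* and a gene without a symbol (0.00184 each), *Cd74* and *Hspb1* (0.0234 each), *Rhpn1* (0.0507), *C3* (0.0865) and ENSRNOG00000033915 (0.0973), of which only the last was higher in HFR. *Capg* and *Rhpn1* are outside the naming rule and were added after their values were seen. HFS replicate 2 is followed below for this reason. Over all genes it was above all 4 HFR libraries in 2361 genes (19.9%) and below them in 2064 (17.4%), and its position in each gene group is given on that background. Among the 430 genes of the diet list these shares were 26.5% and 13.7%.

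Genes of the extracellular matrix were lower in HFR. All 22 tested of 28 listed genes were lower, with a median log2 fold change of -0.75 against -0.01 over all genes (21 of 22 with RLE factors). Unadjusted p was under 0.05 for 7 of them, and the HFR libraries lay below the HFS libraries in 7. Over all genes these shares were 2.56% and 3.68%, and among the genes with a symbol, from which every list is drawn, 9.33% and 11.3%, which is the background for each list of lower genes below. For the count of lower genes, the share was 51.4% over all genes. It was 65.6% on the diet list and 77.6% among genes that the study selected only in its miR-211 experiment. HFS replicate 2 was above all 4 HFR libraries in 8 genes (36.4%) and below them in 0. Summed CPM in HFS was 1229, 873 and 1023, against 433, 600.2, 643 and 901 in HFR, so HFR replicate 4 lay within the HFS range and the other 3 HFR libraries below it. In CS the sums were 547, 1187 and 477, where CS replicate 2 lay within the HFS range. Of the 22 genes 21 come from the diet list.

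*Crispld2*, a secreted protein that binds lipopolysaccharide, is on the diet list but not among the 28 matrix genes. It had the smallest p of the genes with a symbol. It was at 28.97, 31.3 and 19.9 CPM in HFS and at 5.98, 9.21, 9.80 and 14.5 CPM in HFR. Every HFR library was below every HFS library, with HFR replicate 4 nearest to them, and the log2 fold change was -1.42 (SE 0.32, 95% interval -2.09 to -0.75). *Mxra8*, an adhesion molecule of stromal and vascular cells, was at 27.6, 22.2 and 28.98 CPM in HFS and at 10.97, 16.6, 12.997 and 13.6 CPM in HFR, again without overlap, and its log2 fold change was -0.95 (SE 0.24, 95% interval -1.46 to -0.45). *Mmp2*, a matrix metalloproteinase that cleaves type IV collagen, was at 15.2, 12.5 and 13.3 CPM in HFS and at 5.58, 8.11, 4.26 and 10.5 CPM in HFR. The log2 fold change was -0.92 (SE 0.32, 95% interval -1.60 to -0.24), and HFR replicate 4 was again the running library nearest to HFS. *Serpinh1*, a collagen chaperone, had the highest mean CPM of the list over the 7 HFS and HFR libraries, the measure by which the most abundant gene of each list is named, although *Aebp1* and *Prelp* were higher in HFS. It was at 144, 84.9 and 87.3 CPM in HFS and at 57.2, 78.7, 94.4 and 97.3 CPM in HFR. Its groups overlapped, with HFS replicate 1 far above the rest, and its log2 fold change of -0.36 (SE 0.30, 95% interval -1.01 to 0.29) became -0.05 without that library. *Aebp1*, a collagen-binding protein, was at 165, 102 and 108 CPM in HFS and at 25.1, 45.5, 44.5 and 101 CPM in HFR. The groups did not overlap, but HFR replicate 4 lay just under HFS replicate 2, and the log2 fold change of -1.20 (SE 0.68, 95% interval -2.78 to 0.38) had an interval that included zero. *Prelp*, a leucine-rich matrix proteoglycan, showed more spread, with 133, 74.2 and 129 CPM in HFS, 29.7, 52.3, 70.1 and 91.9 CPM in HFR and groups that overlapped.

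The tested transcripts of the microglia list were lower in HFR. Of the 13 genes of the list 8 had an identifier and were tested, and all 8 were lower, with a median log2 fold change of -0.51, 4 at an unadjusted p under 0.05 and 3 without overlap. *Tmem119*, *P2ry12*, *Cx3cr1*, *Aif1* and *Csf1r* had no identifier at hand, so the list covers less than 80% of its genes. Symbols were at hand only for genes that the study had selected as differing. Of the 8 tested genes 4 come from the diet list and 4 only from the list for miR-211, so they do not stand for microglial genes at large. HFS replicate 2 was above all HFR libraries in 4 of the 8 genes (50.0%) and below them in 0. Summed CPM in HFS was 662, 510.03 and 618, against 351, 358, 414 and 542 in HFR. HFR replicate 4 lay within the HFS range and the other 3 below it. In bulk tissue, fewer cells of a type and less RNA per cell cannot be told apart.

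Complement chains were among the genes of this list with separate groups. *C1qb*, the most abundant member and a chain of the C1q complex that starts the classical pathway, was at 184, 165 and 160.3 CPM in HFS and at 109, 114, 105 and 140.4 CPM in HFR. All 4 HFR libraries were lower, with a log2 fold change of -0.53 (SE 0.20, 95% interval -0.96 to -0.10). *C1qc*, which encodes another chain of the complex, was at 94.3, 75.97 and 77.3 CPM in HFS and at 41.3, 44.4, 41.8 and 74.5 CPM in HFR. Here 3 running libraries were close together at the lower level while HFR replicate 4 was just under the lowest HFS library, and the log2 fold change was -0.70 (SE 0.25, 95% interval -1.24 to -0.17). *C1qa*, the remaining chain, overlapped between the groups and had a log2 fold change of -0.25 (SE 0.16, 95% interval -0.59 to 0.09). *C3*, the central component on which the complement pathways converge, was at 33.6, 22.9 and 26.9 CPM in HFS and at 10.2, 13.3, 13.6 and 16.2 CPM in HFR. Its groups were separate, its log2 fold change was -1.06 (SE 0.25, 95% interval -1.58 to -0.53), and of the CS values of 11.97, 20.5 and 12.02 CPM those of replicates 1 and 3 lay in the HFR range and that of replicate 2 between the groups. *C3* and *Cyba* are not on the microglia list and come from the diet list. *Cyba*, the p22phox subunit of the phagocyte NADPH oxidase, was at 109, 79.8 and 93.4 CPM in HFS and at 44.1, 52.2, 44.1 and 70.1 CPM in HFR, with a log2 fold change of -0.83 (SE 0.29, 95% interval -1.47 to -0.19). *Lyz2*, lysozyme of myeloid cells, overlapped because HFR replicate 4 was at 129 CPM while the other running libraries were between 45.7 and 78.8 CPM, under the HFS values of 124, 98.04 and 155 CPM.

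Antigen presentation genes were lower as well. All 6 tested of 7 genes were lower in HFR, with a median log2 fold change of -0.63 (-0.85 without HFR replicate 3 and -0.44 without HFR replicate 1), 1 at an unadjusted p under 0.05 and 2 without overlap. Their sum was 256, 192 and 188 CPM in HFS and 62.4, 111, 137 and 126 CPM in HFR, with no overlap, and 74.3, 239.7 and 77.7 CPM in CS. *Cd74*, the invariant chain that guides MHC class II molecules, was the most abundant member, at 93.5, 73.2 and 70.1 CPM in HFS and at 7.78, 23.04, 14.1 and 39.3 CPM in HFR. The highest running library, replicate 4, was still below the lowest sedentary library, and the log2 fold change was -1.88 (SE 0.68, 95% interval -3.45 to -0.32). *RT1-A2*, an MHC class I gene, was at 56.2, 43.7 and 29.3 CPM in HFS and at 10.8, 41.5, 54.5 and 20.5 CPM in HFR. These overlapped widely, and the log2 fold change of -0.44 (SE 0.69, 95% interval -2.04 to 1.15) became -0.83 without HFR replicate 3 and -0.16 without HFR replicate 1. *RT1-M3-1*, another class I gene, also overlapped, with a log2 fold change of -0.33 (SE 0.19, 95% interval -0.74 to 0.07). All 6 genes come from the diet list, and reads of the polymorphic MHC class I genes in the group may be split between near-identical copies.

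Genes of cytokine and NF-kB signalling were lower in 19 of the 21 tested, with a median log2 fold change of -0.49, 3 at an unadjusted p under 0.05 and 3 without overlap. Among genes with a symbol the shares lower at that p and without overlap were 9.33% and 11.3%, so 3 of 21 lies near that background. The median was -0.28 without HFR replicate 2, and without HFS replicate 1 it was -0.37 with 16 of 21 lower. The other 13 genes of the list, most of them chemokines and interleukins, were too low in count to be tested. Of the 21 genes 11 come only from the list for miR-211, which was chosen on other animals, and 10 of these 11 were lower. Among all 152 tested genes only on that list 118 (77.6%) were lower. The summed CPM in HFS was 879, 726 and 780.5, against 588, 707, 680.3 and 707 in HFR, without overlap but with HFR replicates 2 and 4 close to HFS replicate 2. *Tnfrsf1a*, the main receptor for tumour necrosis factor, was at 40.7, 31.7 and 32.2 CPM in HFS and at 20.1, 24.9, 25.1 and 22.2 CPM in HFR. The groups were separate, and the log2 fold change was -0.59 (SE 0.19, 95% interval -0.999 to -0.19). *Traf1*, an adaptor downstream of such receptors, was scarce, with 5.35, 5.76 and 4.64 CPM in HFS and 1.40, 0.737, 1.92 and 2.58 CPM in HFR, which were also separate, and the log2 fold change was -1.63 (SE 0.58, 95% interval -2.86 to -0.40). *Cxcl16*, a chemokine that also acts as a scavenger receptor, was at 34.3, 20.5 and 28.3 CPM in HFS and at 6.38, 13.1, 12.8 and 22.8 CPM in HFR, where HFR replicate 4 lay inside the HFS range. *Stat3*, a transcription factor of cytokine signalling and the most abundant gene of the list, was at 182, 133 and 176 CPM in HFS and at 127, 162, 169 and 171 CPM in HFR. These overlapped, and the log2 fold change was -0.06 (SE 0.16, 95% interval -0.40 to 0.29). *Tnip1*, which restrains NF-kB, was separate by less than 1 CPM at HFS replicate 3 and HFR replicate 3, with a log2 fold change of -0.19 (SE 0.13, 95% interval -0.46 to 0.08). *Il11ra1*, a cytokine receptor chain, overlapped, with a log2 fold change of -0.21 (SE 0.22, 95% interval -0.68 to 0.26).

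**Figure D2:**
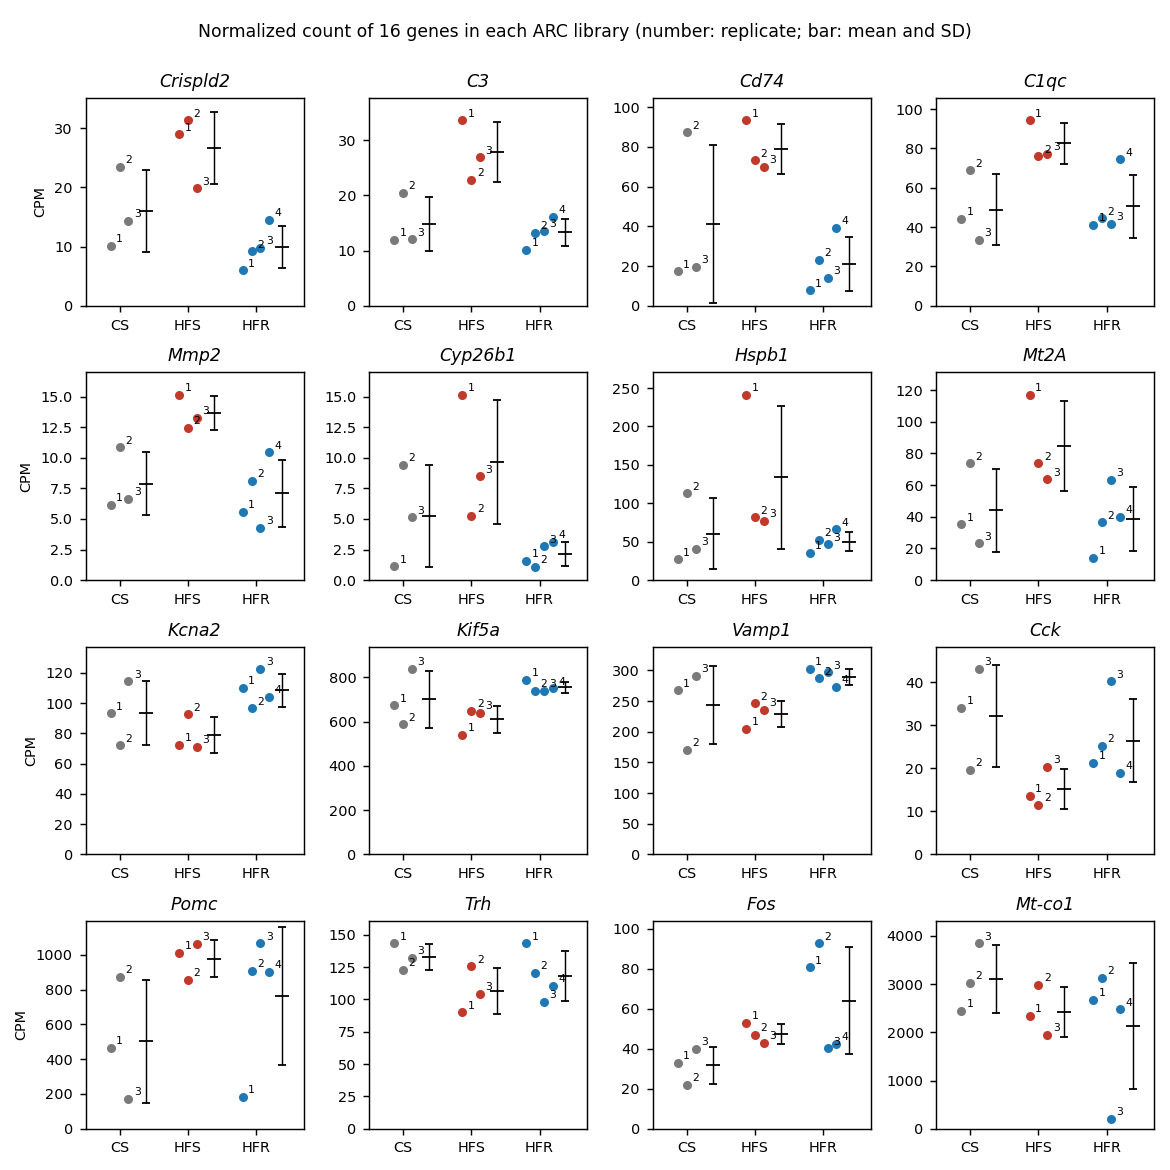
Each panel shows the CPM (y axis, from 0) of 1 gene in every CS (grey), HFS (red) and HFR (blue) library, with the replicate number beside each point and the group mean with its SD as a black bar. *Crispld2*, *C3* and *Cd74* lie lower in all 4 HFR libraries than in all 3 HFS libraries, *Kcna2*, *Kif5a* and *Vamp1* higher, while *Pomc* is low in HFR replicate 1 and *Mt-co1* in HFR replicate 3.

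Metallothionein and redox genes were lower in 12 of 13 tested (11 of 13 with RLE factors), with a median log2 fold change of -0.39 (-0.24 without HFS replicate 1), 2 at an unadjusted p under 0.05 and 3 without overlap. Without HFR replicate 1 they were lower in 9 of 13, and without HFR replicate 3 in 13 of 13. Their sum overlapped, at 1922, 1524 and 1705 CPM in HFS and 1171, 1320, 1961 and 1358 CPM in HFR. *Mt2A*, which binds zinc and copper and is induced by glucocorticoids, was at 117, 73.7 and 63.7 CPM in HFS and at 14.2, 36.5, 63.3 and 39.8 CPM in HFR. HFS replicate 3 and HFR replicate 3 differed by less than 1 CPM, and the log2 fold change was -1.14 (SE 0.52, 95% interval -2.32 to 0.03). *Mt1-ps3*, a metallothionein pseudogene, was at 62.8, 53.4 and 41.95 CPM in HFS and at 16.4, 32.2, 25.1 and 34.4 CPM in HFR, without overlap, with a log2 fold change of -0.96 (SE 0.34, 95% interval -1.70 to -0.21). Reads of near-identical metallothionein copies can be lost or split in counting, so the values of both genes are uncertain. *Gstt3*, a glutathione transferase, was at 396, 318 and 299.9 CPM in HFS and at 271, 237, 283 and 243 CPM in HFR. The groups were separate but close, and the log2 fold change was -0.39 (SE 0.14, 95% interval -0.68 to -0.10). *Gstm1*, another glutathione transferase and the most abundant gene of the list, was at 642, 464 and 635 CPM in HFS and at 424, 495, 828 and 452 CPM in HFR, highest in HFR replicate 3 and lowest in HFR replicate 1. The log2 fold change of -0.08 (SE 0.31, 95% interval -0.78 to 0.62) became -0.34 without HFR replicate 3. *Akr1b1*, aldose reductase, was likewise without a common direction, with a log2 fold change of -0.01 (SE 0.16, 95% interval -0.36 to 0.34).

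*Hspb1*, a small heat shock protein, had 1 sedentary library far from the rest. It was at 242, 81.7 and 77.5 CPM in HFS and at 35.3, 52.7, 46.7 and 66.05 CPM in HFR. The 4 running libraries were lower than all sedentary libraries, but HFS replicate 1 was the highest by far, and the log2 fold change of -1.41 (SE 0.58, 95% interval -2.74 to -0.07) became -0.64 without it. Among the 4 tested of 7 heat shock genes, 3 were lower, with a median log2 fold change of -0.21, and this median was 0.04 without HFS replicate 1. *Cryab*, a lens crystallin of glia and the most abundant of them, was at 503, 309 and 236 CPM in HFS and at 287, 263, 286 and 278 CPM in HFR, again highest in HFS replicate 1. Its log2 fold change of -0.33 (SE 0.20, 95% interval -0.76 to 0.11) became 0.05 without that library, and *Dnajb6*, a co-chaperone, had a log2 fold change of 0.04 (SE 0.15, 95% interval -0.28 to 0.36). All 4 tested of 6 glucocorticoid-responsive genes were lower, with a median of -0.23, 0 at an unadjusted p under 0.05 and 2 without overlap. With the replicate block, or without HFS replicate 3, HFR replicate 2 or HFR replicate 4, 3 of 4 were lower. *Mt2A* is on this list and on that of metallothionein and redox genes. With it the sums were 367, 329.8 and 325 CPM in HFS and 247, 293, 271 and 234 CPM in HFR. Without it, a choice made after seeing the data, they were 250.2, 256 and 261 CPM in HFS and 233, 256.3, 208 and 194 CPM in HFR, which overlapped. *Sgk1*, a kinase induced by glucocorticoids, was at 103, 102 and 122 CPM in HFS and at 98.5, 99.1, 62.004 and 72.7 CPM in HFR, with a log2 fold change of -0.39 (SE 0.26, 95% interval -0.96 to 0.18). *Ddit4*, an inhibitor of mTOR signalling and the most abundant of these genes, was at 112, 117 and 94.95 CPM in HFS and at 99.1, 128, 112 and 72.3 CPM in HFR, which overlapped. All 9 lysosomal genes were lower, with a median of -0.34 and 2 without overlap, while their sums overlapped. *Cst3*, the most abundant member and an inhibitor of cysteine proteases, was at 11952, 14024 and 13689.7 CPM in HFS and at 9787, 9872, 14029.9 and 12971 CPM in HFR. *Cd63*, a tetraspanin of late endosomes, was lower in all 4 running libraries, with a log2 fold change of -0.34 (SE 0.19, 95% interval -0.75 to 0.07), and *Npc2*, a cholesterol carrier, overlapped, with a log2 fold change of -0.21 (SE 0.18, 95% interval -0.58 to 0.17).

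Most of the tested markers of astrocytes, oligodendrocytes and vessels were also lower. These counts stand on a background of 65.6% lower genes on the diet list and 77.6% among those only on the list for miR-211. Only markers that the study had selected as differing could be tested. These were 60% of the astrocyte and tanycyte list and 50% of the oligodendrocyte list. Astrocyte and tanycyte genes were lower in 8 of 9 tested of 15, with a median log2 fold change of -0.26 (-0.16 without HFS replicate 3 and -0.40 without HFS replicate 2), 0 at an unadjusted p under 0.05 and 0 without overlap. Their sum was 7357, 4843 and 6864 CPM in HFS and 3718, 4759, 5895 and 6906 CPM in HFR. *Clu*, the most abundant of them, was at 3331, 2612 and 3509.8 CPM in HFS and at 2331, 2591, 3077 and 4052 CPM in HFR, and its fold change was near zero. *Gfap*, the intermediate filament of astrocytes, was at 2649.9, 1035 and 1907 CPM in HFS and at 378, 1149.8, 1546 and 1681 CPM in HFR. The groups overlapped widely, with HFR replicate 1 the lowest of the 7 libraries, and the log2 fold change was -0.65 (SE 0.60, 95% interval -2.04 to 0.74). *Gpr37l1*, an astrocyte receptor, overlapped too, with a log2 fold change of -0.26 (SE 0.13, 95% interval -0.54 to 0.02). Oligodendrocyte genes were lower in all 5 tested of 10, with a median of -0.32 (-0.17 without HFS replicate 1), 2 without overlap and sums of 20405, 18173 and 13495 CPM in HFS against 15848, 11348, 13633 and 15888 CPM in HFR. *Mbp*, the most abundant of them and a main protein of myelin, was at 17711, 16364 and 11755 CPM in HFS and at 14229.9, 10195, 11993 and 14021 CPM in HFR. *Tf*, transferrin, which oligodendrocytes make in the brain, was highest in HFS replicate 1 at 2009 CPM and had a log2 fold change of -0.43 (SE 0.21, 95% interval -0.87 to 0.01), which became -0.12 without that library, and *Plekhb1* had a log2 fold change of -0.25 (SE 0.16, 95% interval -0.59 to 0.08).

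Endothelial genes were lower in all 7 tested of 12, with a median log2 fold change of -0.34, 1 at an unadjusted p under 0.05 and overlapping sums of 448, 406 and 432 CPM in HFS and 329.8, 366, 459.6 and 354 CPM in HFR. *Slc2a1*, the glucose transporter of the blood-brain barrier and the most abundant of these genes, was at 259, 206 and 227 CPM in HFS and at 207, 214, 227 and 195 CPM in HFR, and a fold change of 2 lay outside its interval of -0.39 to 0.13. *Itm2a*, a membrane protein, had a log2 fold change of -0.34 (SE 0.19, 95% interval -0.75 to 0.07), and *Slco1c1*, the thyroid hormone transporter of brain vessels, a log2 fold change of -0.03 (SE 0.25, 95% interval -0.57 to 0.51), both with overlap. Without HFS replicate 1 the median of the list was -0.12 with 6 of 7 genes lower, and without HFR replicate 3 *Slco1c1* was at a log2 fold change of -0.36. *Angpt2*, an angiopoietin of remodelling vessels, was scarce and separate, with 5.35, 4.32 and 6.08 CPM in HFS and 1.79, 1.47, 1.07 and 4.08 CPM in HFR, and a log2 fold change of -1.27 (SE 0.45, 95% interval -2.22 to -0.32). Genes of smooth muscle and pericytes were lower in 4 of 5 tested of 8, with a median of -0.35, 2 without overlap and sums of 246, 244 and 217 CPM in HFS against 134, 198, 196 and 268 CPM in HFR. *Tagln*, an actin-binding protein and the most abundant of them over the 7 libraries though not in HFS, was at 64.3, 69.9 and 46.8 CPM in HFS and at 30.7, 59.5, 65.4 and 90.4 CPM in HFR, where HFR replicate 4 was the highest of the 7 libraries, and its log2 fold change was 0.03 (SE 0.50, 95% interval -1.10 to 1.17). *Myl9*, a myosin light chain, had a log2 fold change of -0.07 (SE 0.32, 95% interval -0.77 to 0.64). *Flna*, an actin crosslinker, was at 84.8, 61.6 and 68.9 CPM in HFS and at 26.1, 44.2, 51.1 and 69.04 CPM in HFR, and HFR replicate 4 lay inside the HFS range. None of the choroid plexus genes had an identifier at hand. The part of these cell types in the differences above was not tested.

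**Figure D3:**
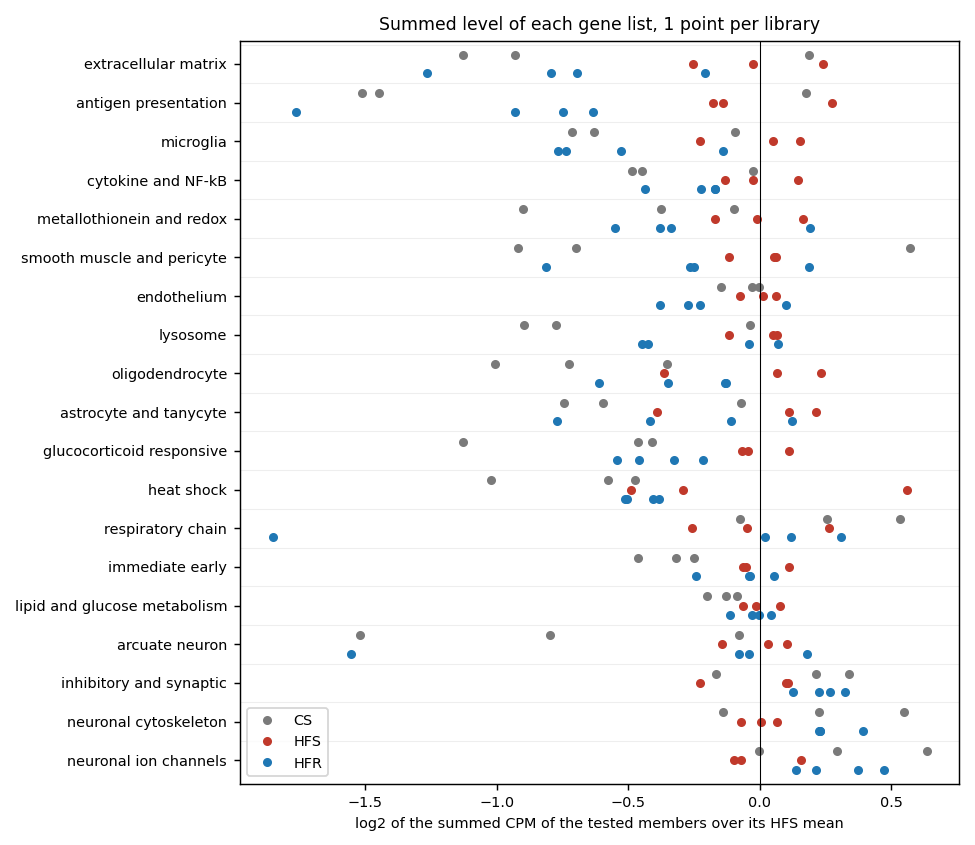
The x axis gives the log2 of the summed CPM of the tested genes of each list over its mean in HFS, with 1 point per CS (grey), HFS (red) and HFR (blue) library and the lists on the y axis in order of their median log2 fold change. The HFR points lie left of all HFS points for antigen presentation, cytokine and NF-kB and glucocorticoid-responsive genes (the last only with *Mt2A*, which is on 2 lists) and right of them for inhibitory and synaptic genes and the neuronal cytoskeleton.

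Most of the listed genes of neuronal channels, cytoskeleton and synapses were higher in HFR, against a background in which 2895 of the 5082 genes with a log2 CPM of 5 or more were higher. All 10 genes for neuronal ion channels were higher, with a median log2 fold change of 0.27 (0.22 without HFR replicate 1, where 1 of the 10 was lower, and 0.38 without HFR replicate 3), 1 at an unadjusted p under 0.05 and 1 without overlap. Their sums of 778, 928 and 793 CPM in HFS and 1157, 1080, 915 and 966 CPM in HFR overlapped at HFS replicate 2 and HFR replicate 3. Genes of the neuronal cytoskeleton were higher in 9 of 11 (8 of 11 with upper-quartile factors), with a median of 0.16 (0.09 without HFR replicate 1 and 0.28 without HFS replicate 2), 1 at an unadjusted p under 0.05 and 3 without overlap. Their sums were 2718, 2867 and 2987 CPM in HFS and 3744, 3337, 3350 and 3352 CPM in HFR, which did not overlap. Inhibitory and synaptic genes were higher in 12 of 17 tested of 19, with a median of 0.13 (0.06 without HFS replicate 1 and 0.23 without HFS replicate 2), 2 at an unadjusted p under 0.05, 3 without overlap and sums of 2993, 3757 and 3778 CPM in HFS against 4390, 4225, 4099 and 3829 CPM in HFR. For higher genes the shares at an unadjusted p under 0.05 and without overlap were 1.67% and 3.16% over all genes, and 1.94% and 4.75% among those with a symbol. All these genes come from the diet list, of which 148 of 430 genes were higher. That list was chosen in part on these HFS libraries, so a rise from HFS is not independent evidence of direction. Some members, such as *Dcx* and *Camk2a*, lay under a log2 CPM of 5, so the background by level covers only the more abundant ones. HFS replicate 2 was below all HFR libraries in 1 of the channel genes (10%), 4 of the cytoskeletal genes (36.4%) and 6 of the synaptic genes (35.3%), and above them in 1 (10%), 3 (27.3%) and 5 (29.4%).

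*Kcna2*, a voltage-gated potassium channel of axons, was at 72.6, 92.6 and 71.1 CPM in HFS and at 110.1, 96.6, 123 and 104 CPM in HFR. The groups were separate, by a narrow margin at HFS replicate 2, and the log2 fold change was 0.46 (SE 0.17, 95% interval 0.11 to 0.81). *Kif5a*, a kinesin heavy chain that moves cargo along axons, was at 539.5, 650.1 and 640.2 CPM in HFS and at 789, 740.5, 739 and 749.9 CPM in HFR, with a log2 fold change of 0.31 (SE 0.14, 95% interval 0.02 to 0.60). The running libraries lay close together, all above the sedentary ones. *Hap1*, *Rab6b* and *Slc6a7* are on none of the gene lists and were named for a small p among genes with separate groups. *Hap1*, a partner of huntingtin that is abundant in hypothalamic neurons, comes only from the list for miR-211. It was at 1171, 1082 and 1325 CPM in HFS and at 1627, 1558, 1496 and 1379.7 CPM in HFR, and the log2 fold change was 0.35 (SE 0.14, 95% interval 0.04 to 0.65). *Rab6b*, a neuronal GTPase of the Golgi, was at 629.5, 654 and 658 CPM in HFS and at 851, 864, 845 and 705 CPM in HFR, where replicate 4 was nearest to HFS. *Vamp1*, a vesicle protein of the release machinery, was at 204, 246 and 236 CPM in HFS and at 303, 287, 297 and 273 CPM in HFR, without overlap, with a log2 fold change of 0.34 (SE 0.16, 95% interval 0.00 to 0.68). *Snap25*, its partner on the plasma membrane, overlapped between the groups, with a log2 fold change of 0.22 (SE 0.18, 95% interval -0.15 to 0.60). *Nrgn*, a calmodulin-binding protein of dendrites and the most abundant synaptic gene of the list, was at 576, 703 and 934 CPM in HFS and at 1004, 1015, 1106 and 823 CPM in HFR, and only HFS replicate 3 and HFR replicate 4 overlapped. *Map1b*, a microtubule-associated protein, was the most abundant cytoskeletal gene and lay between 1244 and 1416 CPM in HFS and between 1528 and 1817 CPM in HFR. *Scn2a*, a sodium channel of axons and the most abundant channel gene, overlapped between the groups and had a log2 fold change of 0.27 (SE 0.18, 95% interval -0.11 to 0.66). The calcium pump *Atp2b2* and the sodium channel subunit *Scn3b* overlapped as well, with a log2 fold change of 0.26 (SE 0.15, 95% interval -0.05 to 0.58) and a log2 fold change of 0.25 (SE 0.17, 95% interval -0.11 to 0.62). *Ina*, a neurofilament protein, was at 243, 255 and 293 CPM in HFS and at 399, 303, 257 and 372 CPM in HFR, where replicate 3 lay within the HFS range. *Syngr3*, of synaptic vesicles, was separate, with a log2 fold change of 0.25 (SE 0.14, 95% interval -0.05 to 0.54). *Slc6a7*, a proline transporter of nerve terminals outside the lists, was at 33.1, 39.7 and 46.9 CPM in HFS and at 50.6, 55.5, 53.7 and 49.5 CPM in HFR, also without overlap.

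Of 14 genes that mark neurons of the ARC, 6 had an identifier, and all 6 were tested. Their sum was 1249, 1106 and 1314 CPM in HFS and 416, 1188, 1386 and 1157 CPM in HFR, and HFR replicate 1 was the low library. *Pomc*, the precursor of melanocortin peptides and the most abundant of the 6, was at 1012, 857 and 1063 CPM in HFS, 182, 907, 1067 and 901 CPM in HFR and 464, 875 and 171 CPM in CS. HFR replicate 1 and CS replicate 3 were at a similar low level, the other HFR libraries lay within or near the HFS range, and the log2 fold change of -0.35 (SE 0.66, 95% interval -1.90 to 1.19) became -0.03 without HFR replicate 1. *Trh*, thyrotropin-releasing hormone, was at 90.004, 126 and 104 CPM in HFS and at 144, 121, 98.01 and 110.5 CPM in HFR, and its interval of -0.18 to 0.48 left out a fold change of 2. *Ghrh*, growth hormone-releasing hormone, was at 77.2, 86.2 and 77.8 CPM in HFS and at 34.9, 95.5, 126 and 85.8 CPM in HFR. It was again lowest in HFR replicate 1 and highest in HFR replicate 3, and its log2 fold change of 0.09 was -0.16 without HFR replicate 3. *Cck*, a satiety peptide, was at 13.6, 11.5 and 20.3 CPM in HFS and at 21.3, 25.2, 40.3 and 19.03 CPM in HFR. The groups overlapped at HFS replicate 3 and HFR replicate 4, and the log2 fold change of 0.80 (SE 0.32, 95% interval 0.12 to 1.48) became 0.53 without HFR replicate 3. The median over the 6 genes was 0.10 with all libraries and -0.09 without HFR replicate 3. *Agrp*, *Npy*, *Cartpt*, *Kiss1*, *Tac3*, *Th*, *Gal* and *Sst* had no identifier at hand and were not examined.

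Immediate early genes, which neuronal activity and handling induce within minutes, were lower in 10 of 17 tested of 24 (9 of 17 with RLE factors), with a median log2 fold change of -0.08 (-0.01 without HFS replicate 1 and -0.14 without HFS replicate 3). Without HFS replicate 2, 13 of 17 were lower, and the count was also 13 with CS replicate 2 and HFS replicate 2 both left out. With all libraries 1 was lower and 0 higher at an unadjusted p under 0.05, and 2 were lower and 0 higher without overlap. Of the 13 immediate early genes only on the list for miR-211, 8 were lower. *Fos* was at 52.9, 46.9 and 42.9 CPM in HFS and at 80.8, 92.9, 40.3 and 42.4 CPM in HFR. HFR replicates 1 and 2 were above all other libraries and replicates 3 and 4 below all HFS libraries, so the log2 fold change was 0.43 (SE 0.29, 95% interval -0.21 to 1.07) is a mean over unlike libraries. *Egr1* was at 39.7, 39.02 and 38.4 CPM in HFS and at 50.4, 50.9, 40.3 and 38.2 CPM in HFR, also highest in HFR replicates 1 and 2 of the 7 libraries, with replicate 4 below the HFS range and replicate 3 just above it. *Jun*, the most abundant gene of the list, did not follow it, with 68.1, 58.7 and 57.97 CPM in HFS and 61.4, 46.8, 64.99 and 60.5 CPM in HFR, and its log2 fold change of -0.08 was between -0.13 and 0.02 with each HFS or HFR library left out.

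Besides *Crispld2*, *C3*, *Cyba*, *Hap1*, *Rab6b* and *Slc6a7*, other genes with separate groups stood outside the lists. *Cyp26b1*, an enzyme that degrades retinoic acid, was at 15.2, 5.28 and 8.49 CPM in HFS and at 1.60, 1.11, 2.77 and 3.13 CPM in HFR. All 4 running libraries were below the sedentary ones, and the log2 fold change was -2.14 (SE 0.58, 95% interval -3.38 to -0.89). *Rras*, a small GTPase of vascular and adhesion signalling, was at 88.1, 74.2 and 63.9 CPM in HFS and at 39.7, 47.5, 57.5 and 61.02 CPM in HFR, with a log2 fold change of -0.55 (SE 0.23, 95% interval -1.04 to -0.06). Higher in all 4 running libraries were *Magee1*, *Speg* and the low-count genes *RGD1307443*, *LOC120093414* and *Depp1*. For *Depp1*, a target of FoxO factors, levels were at most 3.87 CPM and the log2 fold change was 1.31 (SE 0.63, 95% interval -0.03 to 2.65). The log2 fold change was 0.33 for *Magee1*, 0.30 for *Speg*, 0.90 for *RGD1307443* and 1.11 for *LOC120093414*. Of the genes without a symbol, ENSRNOG00000033915 had the smallest p of all (edgeR, unadjusted p = 0.000219). It was at 15.7, 20.2 and 17.9 CPM in HFS, 35.9, 28.2, 31.96 and 33.7 CPM in HFR and 25.6, 24.4 and 25.3 CPM in CS. The groups were separate with CS between them, the log2 fold change was 0.85 (SE 0.18, 95% interval 0.48 to 1.23), and it was the gene that DESeq2 called (Benjamini-Hochberg adjusted p = 0.0515, against 0.989 with edgeR). ENSRNOG00000001182 had a log2 fold change of 0.59 (SE 0.15, 95% interval 0.26 to 0.92) and ENSRNOG00000016062 a log2 fold change of -0.76 (SE 0.19, 95% interval -1.15 to -0.36), each with separate groups. ENSRNOG00000009736 was nearly absent in HFR, with 2.41, 1.76 and 2.40 CPM in HFS and 0, 0, 0.213 and 0.136 CPM in HFR, and its log2 fold change was -4.32 (SE 1.07, 95% interval -6.59 to -2.05) rests on few counts.

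The study names further genes for its diet and running clusters whose groups overlapped here. *Rtl5* was at 2.41, 6.24 and 2.72 CPM in HFS and at 7.58, 6.82, 3.62 and 6.52 CPM in HFR, with HFS replicate 2 among the higher libraries, and its log2 fold change was 0.69 (SE 0.43, 95% interval -0.23 to 1.61). The log2 fold change was 0.17 for the chemokine *Cxcl12* (95% interval -0.22 to 0.55), -0.18 for the antiproliferative gene *Btg2* (-0.70 to 0.33) and -0.27 for the hyaluronan receptor *Cd44* (-1.08 to 0.54).

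**Figure D4:**
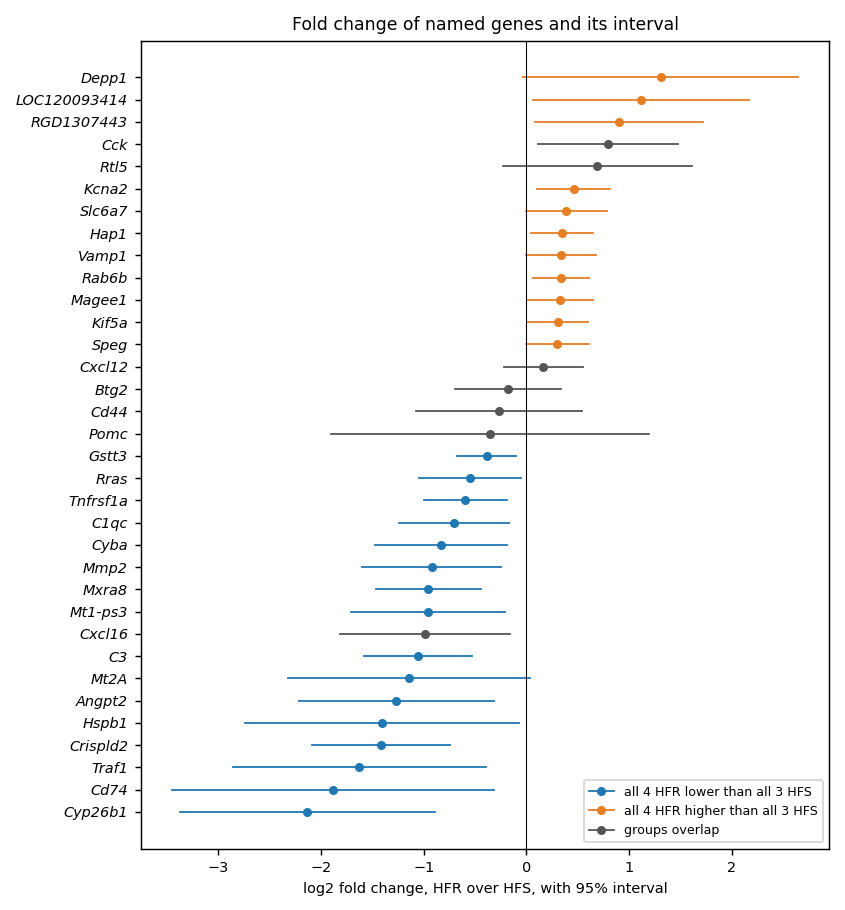
Points give the log2 fold change of HFR over HFS (x axis) from the edgeR fit and lines its 95% interval, for the named genes on the y axis. Blue and orange mark genes whose 4 HFR libraries lie all below or all above the 3 HFS libraries, and grey those that overlap, as for *Pomc*, whose interval spans -1.90 to 1.19.

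Genes of energy metabolism showed no common direction. Of 13 lipid and glucose genes 7 were lower, with a median log2 fold change of -0.05. *Ucp2*, a mitochondrial uncoupling protein, was at 326, 269.8 and 334 CPM in HFS and at 197, 178, 196 and 238 CPM in HFR. The groups were separate, and the log2 fold change was -0.61 (SE 0.30, 95% interval -1.29 to 0.06). *Thra*, a thyroid hormone receptor and the most abundant of these genes, was at 424, 427 and 456 CPM in HFS and at 493, 488, 469 and 514 CPM in HFR, which was higher in every running library, with a log2 fold change of 0.17 (SE 0.12, 95% interval -0.09 to 0.44). *Fdft1*, of cholesterol synthesis, overlapped, with a log2 fold change of 0.24 (SE 0.14, 95% interval -0.06 to 0.54). Of 6 respiratory chain genes 4 were lower, with a median of -0.10, and their sum was 2912, 3613 and 2518 CPM in HFS and 3274, 3737, 834 and 3055 CPM in HFR. The low sum of HFR replicate 3 came from *Mt-co1*, whose log2 fold change of -0.19 was 0.19 without that library. *Ndufs7*, of complex I, had a log2 fold change of -0.02 (SE 0.20, 95% interval -0.44 to 0.40). *Cox5a*, of complex IV, was higher in all 4 running libraries, at 101, 99.6 and 107 CPM in HFS and 120.03, 131, 146 and 116 CPM in HFR, with a log2 fold change of 0.32 (SE 0.23, 95% interval -0.16 to 0.81).

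In the lists whose share was not given above, HFS replicate 2 was above all and below all HFR libraries in 2 and 0 of 6 for antigen presentation (33.3% and 0%), 6 and 0 of 21 for cytokine and NF-kB genes (28.6% and 0%), 5 and 0 of 13 for metallothionein and redox genes (38.5% and 0%) and 2 and 1 of 4 for heat shock (50% and 25%). These counts were 2 and 0 of 4 for glucocorticoid-responsive genes (50% and 0%), 3 and 1 of 9 for lysosomal genes (33.3% and 11.1%), 1 and 0 of 9 for astrocytes and tanycytes (11.1% and 0%) and 3 and 0 of 5 for oligodendrocytes (60% and 0%). They were 2 and 0 of 7 for endothelium (28.6% and 0%), 2 and 0 of 5 for smooth muscle and pericytes (40% and 0%), 0 and 2 of 6 for ARC neurons (0% and 33.3%) and 2 and 3 of 17 for immediate early genes (11.8% and 17.6%). For energy metabolism they were 2 and 3 of 13 for lipid and glucose genes (15.4% and 23.1%) and 3 and 1 of 6 for the respiratory chain (50% and 16.7%). Over all genes the shares were 19.9% and 17.4%, and of these lists those of astrocytes, ARC neurons, immediate early genes and lipid and glucose genes were under the background for a library above HFR. On the diet list the shares were 26.5% and 13.7%, so the 28.6% of cytokine and NF-kB genes and of endothelium lay close to that background.

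Genes that the study selected only in the miR-211 experiment were chosen on other animals and in another contrast. Of 152 such genes tested, 118 (77.6%) were lower in HFR, against 51.4% of all genes, and their median log2 fold change was -0.18 against -0.01. HFS replicate 2 was above all 4 HFR libraries in 39 of them (25.7%, against 19.9% over all genes) and below them in 23 (15.1%, against 17.4%). At a log2 CPM between 2 and 5, 67 of 79 genes (84.8%) were lower, against 57.9% of all genes at that level, with medians of -0.29 and -0.06. At a log2 CPM of 5 or more 34 of 49 (69.4%) were lower, against 43.0% of all genes at that level. Under a log2 CPM of 2 the contrast was weaker, with 17 of 24 (70.8%) lower against 57.1% and medians of -0.17 and -0.11, and there HFS replicate 2 was below all HFR libraries in 6 (25%) against 11.9% of all genes. With single libraries left out the median lay between -0.26 (without HFR replicate 4) and -0.14 (without HFS replicate 1), and in the latter case 103 of the 152 genes were lower. Of the 430 genes of the diet list 282 (65.6%) were lower, with a median of -0.16.

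Further genes depended on single libraries. Without HFS replicate 1 the log2 fold change was -0.06 for *C1qa*, -0.06 for *Tnip1*, -0.24 for *Gstt3*, -0.10 for *Npc2*, -0.29 for *Gfap*, -0.14 for *Mbp*, -0.02 for *Slc2a1*, 0.11 for *Snap25*, 0.16 for *Fdft1* and -0.09 for *Btg2*. Without HFR replicate 1 it was 0.04 for *Trh*, -0.11 for *Cst3*, -0.39 for *Flna* and -0.01 for *Cd44*, and without HFR replicate 2 it was 0.19 for *Fos* and -0.16 for *Plekhb1*. Without HFR replicate 3 it was 0.14 for *Scn3b* and 0.02 for *Dnajb6*, without HFS replicate 2 -0.11 for *Il11ra1* and without HFS replicate 3 -0.20 for *Itm2a*, -0.16 for *Gpr37l1* and 0.70 for *LOC120093414*. Each of these lies nearer to zero than the value from all libraries. Values moved away from zero as well. Without HFS replicate 2 the log2 fold change was 1.26 for *Rtl5*, 0.29 for *Trh*, 0.38 for *Snap25* and -0.20 for *Slc2a1*, and without HFR replicate 3 it was -0.52 for *Cd44*, -0.56 for *Pomc*, -0.33 for *Npc2* and -0.28 for *Cst3*. It was -1.07 for *Lyz2* without HFR replicate 4, -0.43 for *Mbp* without HFS replicate 3, -0.54 for *Itm2a* without HFS replicate 1, -0.29 for *Btg2* without HFR replicate 2 and 0.10 for *Dnajb6* without HFR replicate 1.

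The 4 running animals differed among themselves. The median SD of the log2 CPM over genes was 0.288 in HFR and 0.230 in HFS. Among the 438 genes in which all HFR libraries were below HFS, HFR replicate 4 was the running library nearest to HFS in 202 (46.1%), and replicates 1, 2 and 3 in 72, 77 and 87. Among the 376 genes with higher HFR libraries it was nearest in 131 (34.8%), and replicates 1, 2 and 3 in 81, 88 and 76. HFR replicate 4 had the deepest library, and HFR replicate 1 the lowest sums for matrix, microglia, antigen presentation, astrocyte and ARC neuron genes among the 7 libraries. Whether depth, dissection or the amount of running goes with these positions was not tested.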

How the data were processed

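The authors counted transcript ends by bulk MARS-seq in ARC libraries of the diet and running experiment, with Cutadapt, STAR 2.7.9a, SAMtools and HTSeq 0.13.5, and deposited whole-number counts for 32883 genes. Of that experiment 10 libraries were used, and a further HFS animal and the chow-fed running group given in the study's methods were not analysed here. Counting took no strand, so reads of antisense or overlapping genes cannot be told apart. Counts on genes were 4680736 to 7494207 per library. Summary lines were left out: 22.37 to 26.29% of reads had no feature, 17.17 to 20.63% were not unique and 1.75 to 2.12% were ambiguous. The 8 miR-211 libraries, another experiment, were also left out.

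Genes passing filterByExpr (11892) were fitted with edgeR 4.0.16 (quasi-likelihood, robust, TMM factors, R 4.3.3, limma 3.58.1) on CS, HFS and HFR together, with the contrast HFR minus HFS and Benjamini-Hochberg adjustment at 0.1. The common biological coefficient of variation was 0.234. Alternatives were RLE and upper-quartile factors, DESeq2 1.42.0, no filter, a mean CPM of at least 5, the 7 libraries alone, a replicate block, other thresholds, each library left out and, chosen after seeing the data, CS replicate 2 and HFS replicate 2 left out under DESeq2. The code was tested on simulated data. Tables and figures used Python 3.11.15, numpy 2.4.6, pandas 2.3.3 and matplotlib 3.10.9.

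Symbols came only from supplementary tables of the study (606 of 623 identifiers), whose value columns were not used in any test. Genes were named by rule: called genes, the 12 genes with a symbol and the smallest p in each direction among those with separate groups, the 3 most abundant tested members of each of 21 lists, genes the study names for its clusters, and 2 identifiers without a symbol in each direction. The genes of the rule are given, except for 2 that are not reported here. Members and lists were chosen with earlier results of these data known. Of the tested members, 3 are each on 2 lists.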

Additional observations from a re-analysis of the deposited data

Results flagged for a closer look

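Among 116 groups of 4 HFR values looked at, 6 held a library far from the other 3, and chance flags about 1 in 20 groups. *Rab6b* was at 704.7 CPM in HFR replicate 4, against 845 to 864 CPM in the others. *C1qc* was at 74.5 CPM in the same library, against 41.3 to 44.4 CPM, and *RGD1307443* was at 6.45 CPM in HFR replicate 2, against 4.47 to 4.79 CPM. The summed CPM of neuronal cytoskeleton genes was 3744 in HFR replicate 1, against 3337 to 3352. In HFR replicate 3 the share of reads without a feature was 22.37%, against 24.34 to 24.68%, and 139 tested genes were at zero, against 16 to 33. The cause of these values was not tested.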

How the results depend on the processing

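The count of called genes was 0 in all fits but these: 1 with DESeq2, 2 with the replicate block and 7 with DESeq2 when CS replicate 2 and HFS replicate 2 were left out, which was chosen after seeing the data. At an unadjusted p under 0.05 there were 782 genes with no filter and 281 (without HFS replicate 1, 133 lower and 148 higher) to 775 (without HFR replicate 4) when each library was left out, with 330 without HFR replicate 2. Correlations of equal replicate numbers between HFS and HFR were -0.017, 0.101 and 0.15. So few values cannot show whether the numbers pair the animals, and the main fit holds no pairing. The replicate block gave 732 genes at an unadjusted p under 0.05, 528 lower and 204 higher. Of the 89 named genes, each followed over 13 other fits, 76 kept their sign and 13 reversed in at least 1 fit. All 13 had groups that overlapped. Many of the 76 were named because their groups were separate, and leaving out a library could hardly turn their sign. The count of 76 is thus no measure of how stable the signs are. With the block, the log2 fold change was -0.076 for *Ghrh*, -0.24 for *Tagln*, 0.00304 for *Gstm1*, 0.072 for *Ddit4* and 0.00380 for *Ndufs7*. For *Akr1b1* it was 0.00275 with RLE factors, 0.00274 with DESeq2 and 0.00587 with the 7 libraries alone. With CS replicate 2 and HFS replicate 2 left out it was 0.026 for *Myl9* and 0.0304 for *Ndufs7*, and the median of the respiratory chain list was 0.012. With each HFS or HFR library left out the range was -0.16 to 0.35 for *Ghrh*, -0.13 to 0.0196 for *Jun*, -0.24 to 0.0402 for *Clu*, -0.44 to 0.19 for *Mt-co1*, -0.22 to 0.25 for *Tagln*, -0.23 to 0.0304 for *Myl9*, -0.36 to 0.10 for *Slco1c1*, -0.34 to 0.027 for *Gstm1*, -0.14 to 0.066 for *Akr1b1*, -0.54 to 0.049 for *Cryab*, -0.18 to 0.045 for *Stat3*, -0.19 to 0.068 for *Ddit4* and -0.055 to 0.032 for *Ndufs7*. The list medians ranged from -0.094 to 0.11 for ARC neurons, -0.37 to 0.039 for heat shock, -0.19 to 0.049 for lipid and glucose and -0.18 to 0.013 for the respiratory chain. The cause was not tested. Intervals were wider for genes of low abundance, the effect of depth was not tested, symbols were at hand for 568 of 11892 genes, and 3 sedentary animals set the level of HFS.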
